A study of Mus musculus with 4 samples.

Results

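Cholesterol handling and lipid-sensing nuclear receptor genes were followed through 7 differential histone peaks at 6 genes, *Abca1*, *Nceh1*, *Cyp7a1*, *Rxra*, *Pprc1* and *Mylip*, out of 21089 differential peaks listed for the whole series. The members were chosen by name from the study's own pairing of peaks with genes, except at *Abca1*, where the H3K9ac peak that the study places at this gene was used along with the listed peak that touches it. A peak at a gene, or a gene's own peak, means only such a member peak below. No peak was placed against the exons or the start of a gene. Every other listed peak of either mark within 50 kb was then added, which gave 14 more peaks. Macrophages of C57BL/6J mice were isolated as CD11b+ cells on magnetic beads from dissociated aortas after 20 weeks of chronic intermittent hypoxia (CIH) or room air (RA). In CIH the chamber oxygen switched between 6.1% for 90 seconds and 21% for 90 seconds by day and stayed at 21% by night, and RA mice breathed 21% oxygen throughout. Chromatin was immunoprecipitated for H3K9ac, an acetylation found at active promoters and enhancers, or for H3K27me3, a methylation found at silenced genes, giving 4 libraries, 1 for each mark and exposure, and no input library was analysed here. There were thus no replicates, no difference below carries an error or a test, and each direction compares 2 libraries rather than the 2 exposures.

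The deposited lists contain only peaks already called different between CIH and RA. Each has mm9 coordinates, whose edges fall on multiples of 50 bp, and a sign. The lists hold no read counts and so do not give the depth behind a peak or the size of its difference. The study gives such values for peaks it annotates and for the *Abca1* peak higher in CIH, but they were not used here. The sign was read as higher in CIH or higher in RA from the peaks named in the study's annotation, and 483 of 483 H3K9ac peaks and 117 of 117 H3K27me3 peaks had the same position and direction in both sources. A higher signal can stand for more of the mark per cell or for more cells that carry it, which cannot be told apart in a pool of cells. The 2 libraries of each mark also differ in sequencing yield, and whether this bears on the directions was not tested. The macrophage label could not be checked in these lists, since a differential peak says nothing of a level. Of 8 macrophage markers only *Mertk* had a paired peak, higher in RA, and no marker of smooth muscle, endothelium, fibroblasts, lymphocytes or granulocytes had 1, but the annotation used here reaches few chromosomes for H3K9ac.

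Macrophages in the artery wall take up modified lipoproteins, store the cholesterol as esters and release it again. Oxysterols made from surplus cholesterol activate the liver X receptors (LXR), which pair with RXR on DNA and switch on genes of cholesterol export, and the fatty acid sensors of the PPAR family bind DNA with the same RXR partner. The 6 genes stand at different steps of this traffic. ABCA1 exports cholesterol to apolipoprotein A-I and is a classic LXR target. NCEH1 frees cholesterol from stored esters. CYP7A1 starts bile acid synthesis and is best known from hepatocytes. RXRA is the shared receptor partner, PPRC1 is a coactivator related to PGC-1α that acts on mitochondrial genes, and MYLIP is an LXR-induced ubiquitin ligase that marks the LDL receptor for degradation.

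Sequences of the peak starts are shown first, for the 5 genes that have one, because the loci differ in them. The peak start of *Pprc1* was rich in CG dinucleotides, that of *Nceh1* was nearer the middle, and those of *Rxra*, *Cyp7a1* and *Mylip* were poor in them. The *Pprc1* line covers chr19:46131501-46131740 and has in capitals the E-box CACGTG, the core bound by MYC, USF and related factors. The *Nceh1* line covers chr3:27052210-27052449, the *Cyp7a1* line chr4:6292251-6292490 and the *Rxra* line chr2:27654701-27654940, each with its CG dinucleotides in capitals. Unlike the other lines, that of *Nceh1* does not begin at the first base of its peak, which is 27052051. It holds 14 of the 17 CG dinucleotides in the 399 bases given for this peak. The *Mylip* line covers chr13:45207701-45207917, and no letter is in capitals because it holds neither a CG nor the nuclear receptor motif AGGTCA. All are on mm9, as the study's annotation prints them, on a strand that it does not name.

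Pprc1: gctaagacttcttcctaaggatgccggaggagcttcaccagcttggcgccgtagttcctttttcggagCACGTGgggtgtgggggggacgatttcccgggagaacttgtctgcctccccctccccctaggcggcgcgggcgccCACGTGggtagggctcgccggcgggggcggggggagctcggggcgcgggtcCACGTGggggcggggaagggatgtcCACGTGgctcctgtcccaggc
Nceh1: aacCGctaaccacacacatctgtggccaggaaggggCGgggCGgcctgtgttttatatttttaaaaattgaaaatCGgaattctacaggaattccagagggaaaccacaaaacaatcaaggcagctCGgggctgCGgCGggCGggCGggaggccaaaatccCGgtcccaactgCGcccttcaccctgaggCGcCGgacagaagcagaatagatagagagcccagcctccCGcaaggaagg
Cyp7a1: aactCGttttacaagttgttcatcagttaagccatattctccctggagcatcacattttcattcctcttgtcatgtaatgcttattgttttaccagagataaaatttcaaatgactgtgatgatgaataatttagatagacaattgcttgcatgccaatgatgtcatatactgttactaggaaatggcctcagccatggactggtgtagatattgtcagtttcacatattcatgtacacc
Rxra: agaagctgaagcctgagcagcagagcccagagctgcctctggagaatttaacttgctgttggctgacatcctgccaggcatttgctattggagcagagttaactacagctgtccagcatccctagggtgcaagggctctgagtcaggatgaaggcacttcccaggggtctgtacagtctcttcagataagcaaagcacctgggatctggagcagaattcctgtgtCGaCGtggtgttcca
Mylip: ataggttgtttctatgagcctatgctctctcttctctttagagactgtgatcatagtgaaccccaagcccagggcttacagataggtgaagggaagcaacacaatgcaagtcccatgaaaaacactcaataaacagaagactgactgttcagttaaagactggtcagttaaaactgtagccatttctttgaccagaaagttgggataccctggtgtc

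The copy of the annotation used here holds the first 399 bases of wide peaks, and the whole peak only at *Mylip* among these genes. In these bases the *Pprc1* peak had 29 CG dinucleotides and a GC content of 65.7%, and the *Nceh1* peak had 17 and 51.1%. The *Cyp7a1* peak had 3 and 37.8% and the *Rxra* peak 2 and 51.4%. The median over the 474 H3K9ac peak starts of this length was 13 CG dinucleotides and 53.4% GC, so *Pprc1* lay above the upper quartile of 27.75, *Nceh1* between the median and that quartile, and *Cyp7a1* and *Rxra* below the lower quartile of 6. Of the 474 sequences, 24.1% had at least as many CG dinucleotides as *Pprc1*, 42.8% at least as many as *Nceh1*, 93.2% at least as many as *Cyp7a1* and 97.7% at least as many as *Rxra*. The H3K27me3 peak of *Mylip* had none in its 217 readable bases, where the median over 117 H3K27me3 sequences of unlike length was 2. The remaining 83 of its 300 bases and 26 of the 399 bases at *Cyp7a1* were given as N, for a reason that the source does not state. Direction did not follow composition among these few loci. Above the median CG count, 1 H3K9ac peak was higher in CIH (45.4% of the whole list) and 1 in RA (54.6%), and likewise below it.

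**Figure D1:**
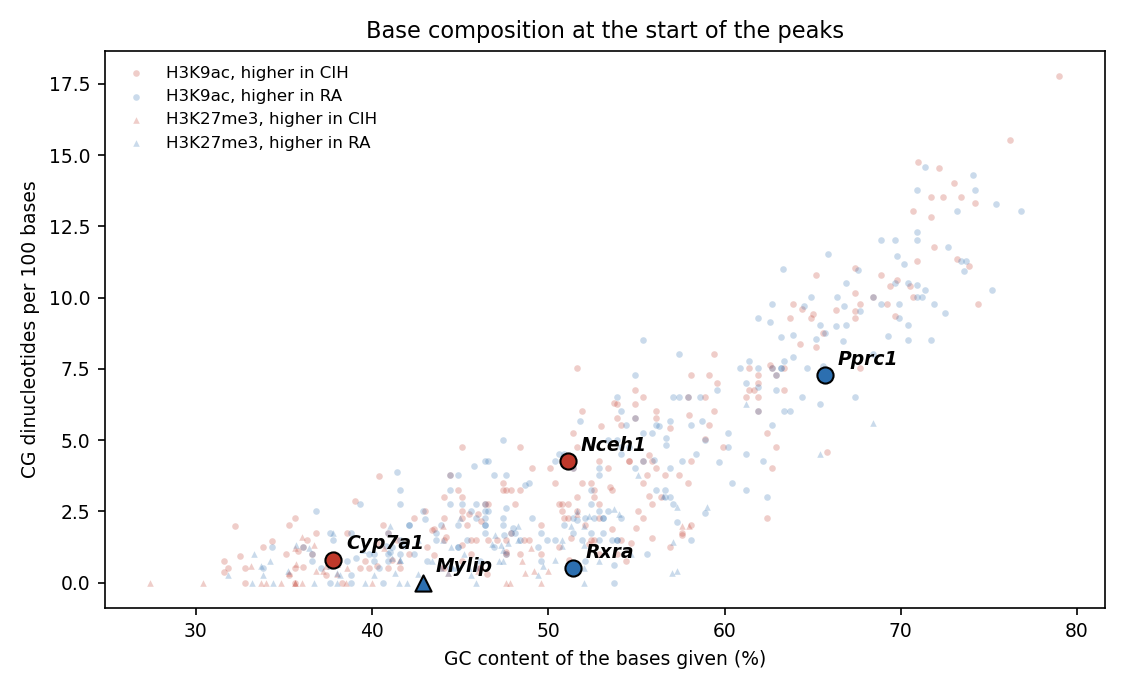
GC content of the bases given for each peak (horizontal axis, %) and CG dinucleotides per 100 bases (vertical axis), with circles for H3K9ac and triangles for H3K27me3 peaks, red for peaks higher in CIH and blue for peaks higher in RA. The outlined points are *Pprc1* at 7.27, *Nceh1* at 4.26, *Cyp7a1* at 0.804, *Rxra* at 0.501 and *Mylip* at 0 per 100 bases.

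The *Pprc1* peak start held CACGTG 4 times, at bases 69 to 74, 144 to 149, 195 to 200 and 220 to 225 counted from the first base of the peak. This motif reads the same on both strands. It was present in 9.07% of the 474 H3K9ac peak starts, and *Pprc1* was the only sequence among them with 4 or more copies. None of the other 4 peak starts of these genes held it. The Sp1 core GGGCGG, searched on both strands, occurred 4 times at *Nceh1* and 2 times at *Pprc1*, and in 35.2% of all the peak starts. AGGTCA, the unit from which LXR, PPAR and RXR sites are built, was found on neither strand of any of the 5 sequences, against 16.9% of the peak starts, and neither was the cyclic AMP response element TGACGTCA, against 1.69%. CCAAT occurred 2 times at *Cyp7a1* and 1 time at *Rxra* (40.5% of all), and the AP-1 motif TGANTCA 1 time at *Rxra* (9.92%). A match is a description of letters and not evidence of binding.

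*Abca1* had member peaks in both directions, because only there was the touching peak taken as a member. Peaks of the opposite direction also touched the member peaks of *Cyp7a1*, *Rxra* and *Pprc1*. Its peak higher in CIH was 600 bp wide and lies on chromosome 4 from 53171951 to 53172550, and the peak from 53172551 to 53172900, 350 bp wide, began at the next base and was higher in RA. The study's copy of annotated H3K9ac peaks used here is ordered by peak name and runs past both names without listing either, so no sequence of these peaks was at hand. A single other peak lay within 50 kb, 450 bp wide and higher in CIH, 36100 bp beyond the RA end of the pair. Over the window, 2 peaks that sum to 1050 bp were higher in CIH and 1 peak of 350 bp was higher in RA. Going out to 100 kb added 4 peaks, among them a peak of 2000 bp, higher in CIH, at a gap of 58200 bp, which the study pairs with 4930412L05Rik.

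The promoter of *Abca1* in RefSeq is shown because no peak sequence of this gene was at hand. It runs from 250 bases before to 50 bases after the transcription start, at chr4:53159846-53160145 of GRCm38.p6 on the minus strand, and is printed in the direction of the gene. These coordinates belong to another build than the peaks, so whether the peaks cover this window was not determined. The capitals mark CACGTG and, closer to the start, the repeat of GGTTA and GGTCA with 5 bases between them, which reads on the opposite strand.

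Abca1 promoter: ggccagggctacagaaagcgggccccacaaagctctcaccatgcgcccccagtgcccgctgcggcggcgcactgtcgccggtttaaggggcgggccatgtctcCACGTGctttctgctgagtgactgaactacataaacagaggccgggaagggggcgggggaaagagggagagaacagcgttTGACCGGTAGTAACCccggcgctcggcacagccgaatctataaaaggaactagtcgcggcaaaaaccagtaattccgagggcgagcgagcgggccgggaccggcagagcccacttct

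CACGTG occupies bases 104 to 109 of this window, and the repeat bases 184 to 198, which ends 53 bases before the start. CACGTG was found in 7.15% of 32851 RefSeq promoters of 300 bases. The repeat was found in 16 of them (0.0487%) and in none of the 474 H3K9ac peak starts. Each unit was searched as 5 letters, 1 fewer than AGGTCA has, and with units of that length the gap is 1 base shorter. Read so, the repeat has the layout of the direct repeat through which LXR and RXR are known to act on this gene. Its letters were chosen after this promoter had been read, so the share describes how rare the letters are and tests nothing. The *Nceh1* promoter also held CACGTG, 1 time, while the promoters listed for *Rxra*, *Pprc1* and *Mylip* held none. AGGTCA, absent from the peak starts, occurred 2 times in 1 promoter listed for *Rxra* and 1 time in that of *Pprc1*. The promoters of *Abca1*, *Nceh1* and *Mylip* did not hold AGGTCA, which was found in 16.3% of the RefSeq promoters. *Cyp7a1* was the only gene of the 6 without a promoter in the table.

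*Nceh1* had the widest peak of the set. It was higher in CIH, spans 1600 bp on chromosome 3 from 27052051 to 27053650 and is paired with *Nceh1* alone. Among all H3K9ac peaks higher in CIH 5.33% were at least this wide, but 36.0% among those that the study annotated. It touched no other peak, as did 63.8% of the H3K9ac list. The only other peak within 50 kb was 650 bp wide, higher in RA and 45200 bp away, near the edge of the window. *Nceh1* was therefore the plainest of the loci, with a single broad block higher in CIH and no listed peak of either mark close to it.

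At *Cyp7a1* the peak higher in CIH spans 1100 bp on chromosome 4 from 6292251 to 6293350. The study pairs this peak also with *Sdcbp*, the gene of the adaptor protein syntenin-1, so it cannot be assigned to *Cyp7a1* alone. It was the first of 3 touching peaks. A strip of 150 bp, from 6293351 to 6293500, was higher in RA, and from 6293501 to 6294750 another 1250 bp were higher in CIH. A further peak of 1450 bp, higher in CIH, began 17200 bp after the end of the member peak, and a peak of 250 bp, higher in RA, lay 38950 bp away on the other side. The window thus held 3 peaks higher in CIH with 3800 bp in all and 2 higher in RA with 400 bp, the most lopsided of the H3K9ac windows toward CIH by covered length. The gap of 150 bp between both CIH blocks is the width of 3 of the 50 bp steps in which peaks were drawn.

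The *Rxra* peak was higher in RA and spans 800 bp on chromosome 2 from 27654701 to 27655500. It is paired with *Col5a1* as well, which encodes a chain of type V collagen, so it cannot be assigned to *Rxra* alone. Directly before it, from 27654451 to 27654700, 250 bp were higher in CIH. Another peak higher in CIH, 350 bp wide, lay 7250 bp away. Over the window 2 peaks with 600 bp were higher in CIH and 1 peak with 800 bp was higher in RA. The count and the covered length of this locus pointed in opposite directions. The *Rxra* peak was the only 1 in its window that was higher in RA.

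*Pprc1* stood in the most crowded window, with 5 other peaks. Its own peak, higher in RA, spans 1250 bp on chromosome 19 from 46131501 to 46132750. Of 11441 H3K9ac peaks higher in RA, 165 (1.44%) were at least this wide, but 12.1% of the annotated ones. Among all H3K9ac peaks of 1250 bp or more, 1241 were higher in CIH and these 165 in RA (11.7%). It closed a run of 3 touching peaks, with 250 bp higher in CIH from 46131251 to 46131500 and, before that, 250 bp higher in RA from 46131001 to 46131250. The order RA, CIH, RA was seen in 174 of the 527 runs of 3 in the list (33.0%), and the reverse order, that of *Cyp7a1*, in 353 (67.0%). A touching pair of 300 bp higher in CIH and 450 bp higher in RA lay 11100 and 11400 bp away. On the other side, at 17850 bp, a peak of 700 bp was higher in RA and is paired with *Elovl3*, which elongates saturated fatty acids. The window summed to 550 bp higher in CIH and 2650 bp higher in RA.

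**Figure D2:**
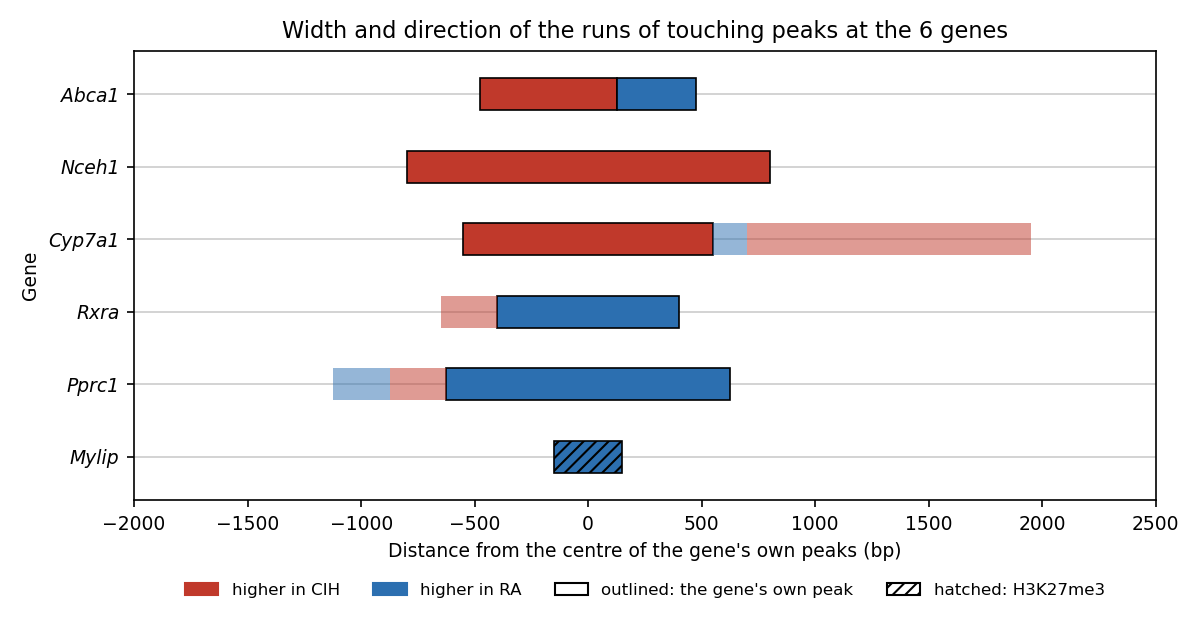
Width and direction of the genes' own peaks (outlined) and of the peaks in the same touching run, as distance in bp from the centre of the own peaks (horizontal axis), with 1 line per gene. Red blocks were higher in CIH and blue blocks higher in RA, and hatching marks H3K27me3. The blocks alternate at *Abca1*, *Cyp7a1*, *Rxra* and *Pprc1*, while *Nceh1* (1600 bp) and *Mylip* (300 bp) stand alone.

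*Mylip* was the only gene of the 6 with a member peak of H3K27me3. This peak was higher in RA, spans 300 bp on chromosome 13 from 45207701 to 45208000 and is paired with *Mylip* alone. It was of ordinary width, since 73 of the 93 H3K27me3 peaks higher in RA were at least as wide and their median was 350 bp. No other H3K27me3 peak lay within 10 Mb, the nearest being 10667950 bp away. The single H3K9ac peak within 50 kb was 600 bp wide, also higher in RA, and 40350 bp from it. An H3K9ac peak within this distance was found for 84 of the 146 H3K27me3 peaks (57.5%). The 2 marks did not overlap at *Mylip* or in any of the other windows, which held no H3K27me3 peak at all. The lists hold 146 H3K27me3 peaks against 20943 H3K9ac peaks, so few H3K9ac peaks can have an H3K27me3 peak within 50 kb. Neither this absence nor the wide gap around the *Mylip* peak can be taken as a trait of these genes. The nearest H3K27me3 peak was 6288200 bp away at *Abca1*, where it is the peak paired with *Gabbr2*, and chromosome 19, which carries *Pprc1*, had none in the list.

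**Figure D3:**
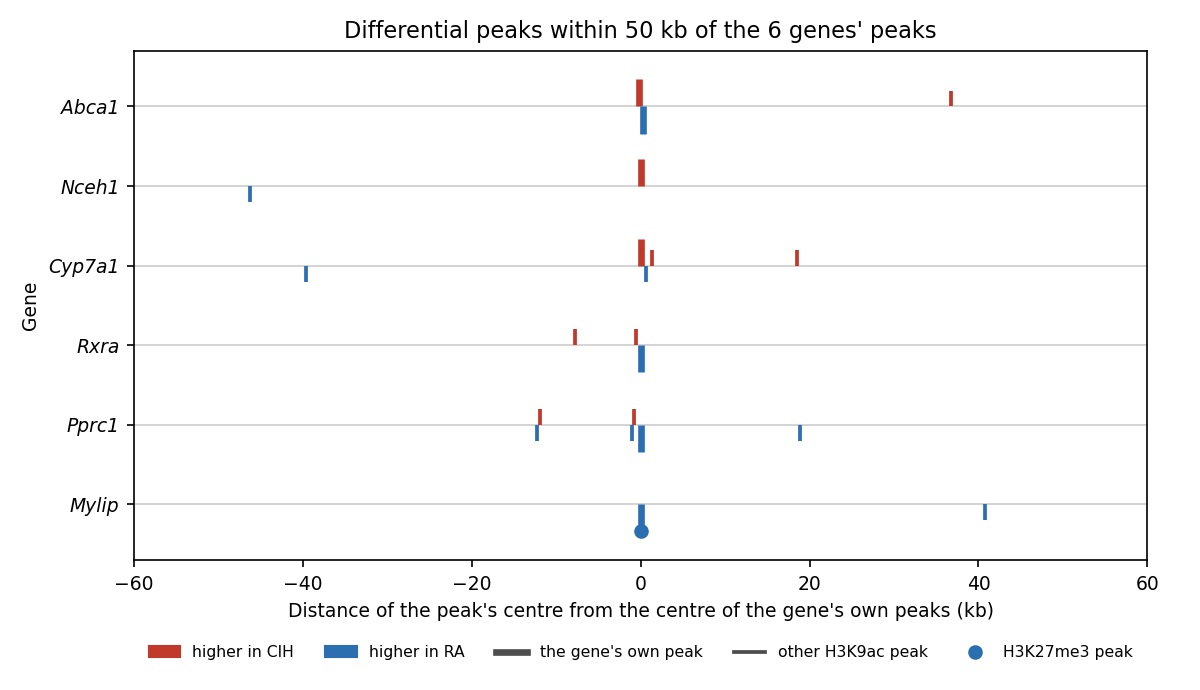
All 21 listed peaks at the 6 genes by the distance of their centre from the centre of the gene's own peaks (horizontal axis, kb), with 1 line per gene. Red bars above a line were higher in CIH and blue bars below it higher in RA, long bars are the gene's own peaks and the dot marks H3K27me3. *Pprc1* has 5 other peaks and *Cyp7a1* 4, while *Abca1*, *Nceh1* and *Mylip* have 1 each.

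Across the set, 3 of the 6 H3K9ac member peaks were higher in CIH, at *Abca1*, *Nceh1* and *Cyp7a1*, and 3 were higher in RA, at *Abca1*, *Rxra* and *Pprc1*. Of the whole H3K9ac list, 45.4% stood higher in CIH and 54.6% in RA. However, the RA peak at *Abca1* is a member only because it touches the CIH peak there. None of the 4157 touching pairs in the list shared a direction, so that of this RA peak followed from the choice. The even division of the members was thus partly set by how they were chosen and cannot be judged against the list. The single H3K27me3 member was higher in RA, in a list where 36.3% stood higher in CIH and 63.7% in RA. With neighbours included, 10 H3K9ac peaks with 7600 bp in all were higher in CIH, against 10 with 5450 bp in all higher in RA. Peaks higher in CIH were the wider ones throughout the H3K9ac list, with a median of 600 bp against 300 bp. The larger covered length in CIH can therefore not be taken as a trait of these genes.

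The peaks of *Nceh1*, *Cyp7a1*, *Rxra* and *Pprc1* were members through the annotation of the study, and their widths are therefore given against it as well as against the list. The study's H3K9ac annotation was selected for high read number, and its 483 peaks used here were wider than the list, with a median of 1400 bp against 600 bp among peaks higher in CIH and of 850 bp against 300 bp among peaks higher in RA. Within the annotation, a background added after the data had been seen, 36.0% of peaks higher in CIH were at least as wide as *Nceh1* and 76.7% at least as wide as *Cyp7a1*. Of the annotated peaks higher in RA, 63.6% were at least as wide as *Rxra* and 12.1% at least as wide as *Pprc1*. The shares of the whole list were 18.4% at the width of *Cyp7a1* and 8.92% at that of *Rxra*. The *Abca1* peaks did not come from the annotation and were ordinary for the list, with 55.2% of peaks higher in CIH at least 600 bp and 49.9% of peaks higher in RA at least 350 bp wide.

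**Figure D4:**
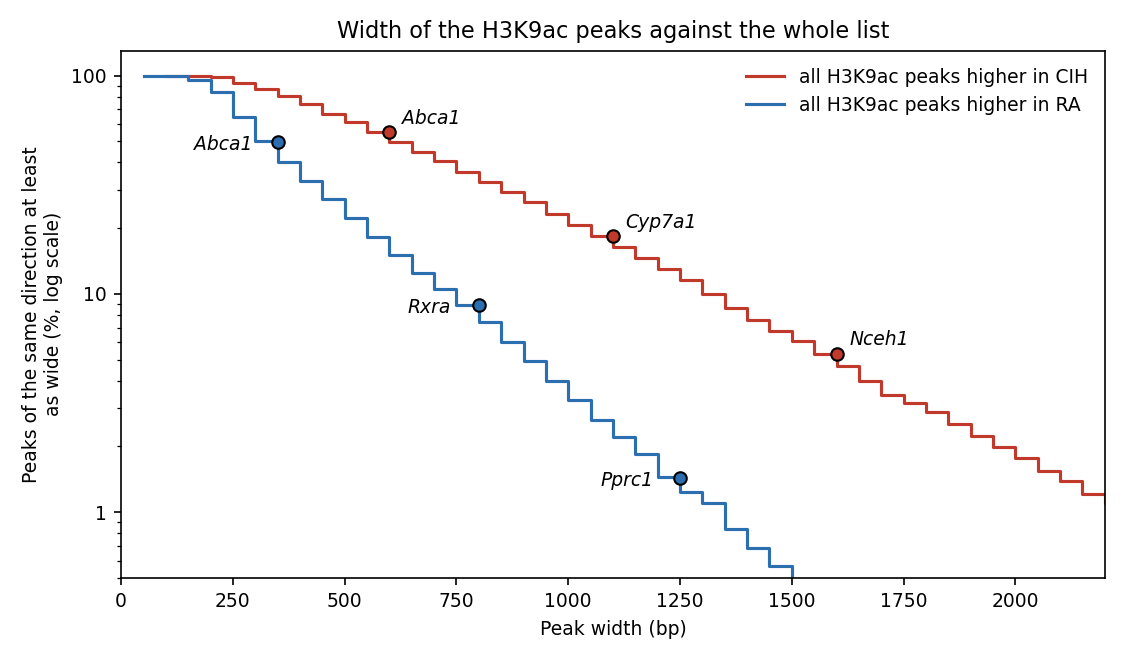
Share of H3K9ac peaks of 1 direction that are at least as wide as a given width (vertical axis, %, log scale) against peak width in bp (horizontal axis), in red for peaks higher in CIH and blue for peaks higher in RA. Points mark the 6 member peaks on the line of their own direction, from both *Abca1* peaks at 55.2% and 49.9% to *Nceh1* at 5.33% and *Pprc1* at 1.44%, the shares within the annotated peaks being 36.0% and 12.1%.

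The number of other H3K9ac peaks within 50 kb was 1 at *Nceh1*, 2 at each *Abca1* peak and at *Rxra*, 4 at *Cyp7a1* and 5 at *Pprc1*, where the median over the list was 2 with quartiles of 1 and 3. Of the 10 H3K9ac neighbours of an H3K9ac member that did not touch it, 5 had the direction of the nearest member peak. Over the list, 52.9% of 17112 such pairs had the same direction. Some of these directions were fixed in advance, since touching peaks never share one in the list. The neighbours 150 bp from the *Cyp7a1* member and 250 bp from the *Pprc1* member belong to its run of touching peaks. With 1 peak between, each had to share the direction of its member. The touching pair 11100 and 11400 bp from *Pprc1* had to differ. At *Abca1* the neighbour was counted against the nearer RA peak, a member only because it touches the CIH peak. The even division can therefore not be judged against the list.

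Touching peaks had opposite directions in all 7 pairs of these windows. This is a property of the list and not of these genes, as none of its 4157 touching pairs had the same direction. The peak higher in CIH was the wider in 3 of the 7 pairs, at *Abca1* and 2 times at *Cyp7a1*, and the peak higher in RA in 3, at *Rxra* and 2 times at *Pprc1*, with 1 pair equal. In the list the peak higher in CIH was the wider in 68.1% of touching pairs and the peak higher in RA in 24.8%. The pairs of these windows cannot be judged against these shares. The members at *Cyp7a1*, *Rxra* and *Pprc1* come from an annotation of wider peaks, which favours the side of the member. Both pairs at *Cyp7a1* also share the same strip of 150 bp. *Abca1* and *Rxra* belong to the 2786 runs of 2, and the directions are in the order CIH, RA at both when read along the chromosome, with the wider block being CIH at *Abca1* and RA at *Rxra*.

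Of 99 genes of cholesterol handling, sterol synthesis, bile acid enzymes, nuclear receptors, their coregulators and fatty acid genes under LXR or PPAR, 8 had a paired peak in the annotation used here, and 5 of these 8 were the member genes other than *Abca1*. The annotated H3K9ac peaks used here come almost entirely from chromosomes 1, 2, 3, 4 and 19, so a gene elsewhere could hardly appear among them. How many of the 99 genes lie on these chromosomes was not determined, nor was the share of all mouse genes with a paired peak. The numbers of list genes with a peak can therefore not be read as high or low. Over all 610 genes paired there with an H3K9ac peak, 51.5% had a peak higher in CIH and 56.1% a peak higher in RA. Of the 93 genes that are no members, *Cyp51*, encoding lanosterol demethylase of the cholesterol synthesis route, had a peak higher in CIH, 850 bp wide on chromosome 5 from 4104001 to 4104850, shared with *Mterf1b*. The other 2 had peaks higher in RA. *Hnf4a*, the nuclear receptor best known from liver, shared a peak of 550 bp with *Ttpal* on chromosome 2 from 163427151 to 163427700. *Ncoa3*, a steroid receptor coactivator, had a peak of 1050 bp on chromosome 2 from 165818151 to 165819200.

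By list, the nuclear receptors had 2 of 20 genes with a peak and the coregulators 2 of 10, and all 4 of these H3K9ac peaks were higher in RA, as were peaks of 56.1% of all annotated genes. The *Rxra* and *Hnf4a* peaks are each shared with a gene outside the lists. The lists of sterol synthesis, with 1 of 22 genes, and of bile acid and oxysterol enzymes, with 1 of 7, had their peak higher in CIH. Uptake, efflux and storage had 2 of 24, with *Nceh1* higher in CIH and *Mylip* higher in RA for H3K27me3. None of the 16 fatty acid genes chosen as LXR or PPAR targets had a paired peak, and *Elovl3* at the *Pprc1* locus is not among them. These counts are too small to set against the rest of the annotation. Of the 8 genes, 4 had a peak paired with no other gene, *Nceh1*, *Pprc1*, *Ncoa3* and *Mylip*.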

How the data were processed

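ChIP-Seq of aorta macrophages from CIH and RA mice was used as 1 deposited list of differential peaks per mark, from 4 libraries without replicates. No input library was analysed here. The submitters' processing notes name Trimmomatic 0.32, BWA 0.7.12, SAMtools 1.2, Picard 1.121, bedtools 2.23.0, MACS2 2.1.0 and mm9. The study describes filters against blacklisted and low complexity regions and a combination of results of more than 1 analysis tool. The score deposited by the authors is 1000 in every row and was not used. Depth at the peaks could not be checked from the lists, as they hold no counts. The study reports a larger sequencing yield for the CIH than for the RA library of each mark. Whether this bears on the widths and covered lengths by direction was not tested.

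Positions, widths, directions and gaps between facing edges were computed with Python 3.11.15, numpy 2.4.6 and pandas 2.3.3, after the neighbour search had been tested on simulated data, and plotted with matplotlib 3.10.9. Coordinates count from 1. Pairings with genes and peak sequences came from the study's annotation, whose values were not used. RefSeq promoters (GRCm38.p6) were matched by symbol for 5 of 6 genes. No test was run. The members, gene lists and motifs were chosen with earlier results and sequences known. All 6 genes are named, with genes that share or neighbour their peaks and every list gene with a peak, except that 1 list gene is not reported here and was left out of the counts. Other windows, a width minimum, joined peaks and single-gene pairing were tried.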

Additional observations from a re-analysis of the deposited data

How the results depend on the processing

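Neighbours of the members numbered 14 within 50 kb, 10 within 20 kb, 20 within 100 kb and 14 by distance between centres. They numbered 9 when only peaks over 250 bp were kept and 8 when touching peaks were joined into 1 region. All 7 member peaks were over 250 bp wide. The list genes with a paired peak fell to 4, against 8, when only peaks paired with 1 gene symbol were used, which removed *Cyp7a1*, *Rxra*, *Hnf4a* and *Cyp51* by construction. Covered lengths in windows of 20 kb, 50 kb and 100 kb were 7150, 7600 and 10900 bp higher in CIH and 3950, 5450 and 6200 bp higher in RA. A threshold stricter than the authors' was not run, as the score is constant, and no left-out replicate exists. No paired analysis was possible because each mark has 1 library per exposure. The lists hold no counts, and the study's own values were not used. A peak resting on few reads is therefore not told from a deep one here.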
